A study of Mus musculus with 39 samples.

Results

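Transcripts that mark excitatory neurons of the cerebral cortex were followed through RNA sequencing libraries of sorted mouse astrocytes. The set holds 9 genes of the 55401 in the deposited tables: Slc17a7, Neurod2, Neurod6, Tbr1, Nrgn, Nptxr, Slc30a3, Rtn4r and Nrn1. They were taken by symbol in GENCODE M21 and were chosen by their measured levels in these libraries, with the difference between 2 brain regions in view. That difference is therefore given below as a description with no test. All 9 were found, and all 9 passed the filter on low counts in every comparison.

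The libraries come from male mice, either controls or exposed to chronic social defeat stress, in which a mouse meets an aggressor repeatedly. Stressed mice were later classed as susceptible or resilient by their social behaviour. The tissue label of 22 libraries is NAc, the nucleus accumbens, with 7 control, 8 susceptible and 7 resilient mice. That of 17 libraries is PFC, which the labels do not spell out and which is read here as prefrontal cortex, with 6, 6 and 5 mice. The treatment protocol names NAc punches for all 39 libraries, so the origin of the 17 rests on the tissue label alone. All groups share the same sort, magnetic beads against ACSA-2, an epitope on the pump subunit encoded by Atp1b2 that astrocytes carry. No agent, allele or transgene is named for any group, and strain and age were not given in the sources used here. In the labels the mouse id differs between all libraries and equals the sample number, and whether any mouse gave both regions is not settled by it.

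Excitatory neurons of the cortex release glutamate, which a transporter in the vesicle membrane loads into synaptic vesicles. They arise under basic helix-loop-helix factors of the NeuroD family and, in deep layers, the T-box factor Tbr1. The nucleus accumbens lies in the ventral striatum, whose projection neurons are GABAergic and which receives glutamatergic axons from the cortex. Astrocytes are not known for these genes, and their transcripts in sorted astrocytes are described here as carry-over through the sort. In bulk libraries fewer neurons and less RNA per neuron cannot be told apart. Nor can whole neurons that passed the sort be told from fragments of neurons or from free RNA.

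Upstream sequence is shown for 4 members because the set holds transcription factors of the family that reads E-boxes, short sites of the form CANNTG. The RefSeq promoter table, on GRCm38.p6, the assembly of mm10, gave 8 windows for 7 of the 9 members, and none was used for Nptxr and Nrn1. The first 3 windows belong to the glutamate transporter gene and the NeuroD factors, and the last to the member with the most GC-rich window. Each line gives the 250 bases upstream of a transcript start, 5′ to 3′ on the gene's strand, with E-boxes and TGACG or its reverse complement in capitals.
Slc17a7, chr7:45163671-45163920, plus strand: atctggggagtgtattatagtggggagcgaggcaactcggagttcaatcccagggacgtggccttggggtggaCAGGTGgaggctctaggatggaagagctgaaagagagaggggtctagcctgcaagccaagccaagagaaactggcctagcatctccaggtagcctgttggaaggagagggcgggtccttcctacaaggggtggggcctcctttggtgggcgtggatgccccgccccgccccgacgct
Neurod2, chr11:98329646-98329895, minus strand: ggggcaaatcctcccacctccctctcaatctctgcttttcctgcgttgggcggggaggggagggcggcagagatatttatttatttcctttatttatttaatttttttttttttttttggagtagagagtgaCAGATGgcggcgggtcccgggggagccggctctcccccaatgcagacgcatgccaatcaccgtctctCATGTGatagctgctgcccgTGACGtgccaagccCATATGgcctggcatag
Neurod6, chr6:55681264-55681513, minus strand: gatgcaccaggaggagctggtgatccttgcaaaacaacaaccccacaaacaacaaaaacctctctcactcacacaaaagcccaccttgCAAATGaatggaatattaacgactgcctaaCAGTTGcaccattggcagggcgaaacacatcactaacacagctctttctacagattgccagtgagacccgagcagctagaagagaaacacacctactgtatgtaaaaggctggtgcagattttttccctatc
Rtn4r, chr16:18127392-18127641, plus strand: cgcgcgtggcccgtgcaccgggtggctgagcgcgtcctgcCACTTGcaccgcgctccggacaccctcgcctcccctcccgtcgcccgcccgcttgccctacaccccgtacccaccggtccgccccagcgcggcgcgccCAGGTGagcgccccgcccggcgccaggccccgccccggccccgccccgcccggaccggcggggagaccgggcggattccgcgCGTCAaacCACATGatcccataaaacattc

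The letters in capitals are matches to a pattern and were not measured to bind anything here. An E-box stood in 6 of the 8 windows, against 66.2% of 32851 RefSeq promoters of the same length. The form CAGATG, which NeuroD factors can bind, stood in the windows of Neurod2, starting 118 bases upstream, and of Nrgn, 208 bases upstream, against 14.4% of promoters. TGACG, the shorter form of the cyclic AMP response element to which CREB binds, stood in Neurod2, 31 bases upstream, and in Rtn4r, 30 bases upstream, against 17.8% of promoters. The full element TGACGTCA was in 0 of the 8 windows and in 1.55% of promoters. The T-box element AGGTGTGA was in 1 window of Slc30a3 and in 1.12% of promoters. Both strands were searched, and every CAGATG is also counted under CANNTG.

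The deposited counts cover whole gene spans, introns included, so FPKM is here scaled by the length of the span and by the library total. The same number of mature transcripts gives a lower FPKM where exons fill little of the span. Exons fill 74.2% of Neurod2, which spans 4234 bases of chromosome 11 (98325415 to 98329648, minus strand), and 62.5% of Neurod6 on chromosome 6 (55677822 to 55681263, minus strand). They fill 49.0% of Tbr1 on chromosome 2 (61802930 to 61814114, plus strand) and 44.2% of Slc17a7 on chromosome 7 (45163949 to 45176142, plus strand). The share is 28.1% for Nptxr on chromosome 15 (79786351 to 79804766, minus strand), 23.02% for Nrn1 on chromosome 13 (36725361 to 36735131, minus strand) and 17.3% for Nrgn on chromosome 9 (37544492 to 37552904, minus strand). It is 12.8% for Slc30a3 on chromosome 5 (31086106 to 31108237, minus strand) and 7.82% for Rtn4r, which spans 24767 bases of chromosome 16 (18127642 to 18152408, plus strand). The coordinates are those of GENCODE M21 on mm10. The span of Nptxr overlaps Npcd on the same strand, that of Slc17a7 holds the microRNA gene Mir7055, and those of Slc30a3 and Nrn1 overlap genes on the other strand. As the strand setting of the counting was not given in the sources used here, reads of such neighbours cannot be told from those of these 4 members.

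Depth and background differed between libraries and touch every value below. Library totals ran from 0.941 to 37.3 M counts with a median of 11.3 M, and NAc control replicate 3, PFC susceptible replicate 6 and PFC resilient replicate 3 stood under 2 M. Background was read from 1479 olfactory, vomeronasal and trace-amine receptor genes, most of which are silent in brain. Their FPKM, summed counts over summed spans, was set against that of counts spread evenly over all genes and ran from 13.4% to 80.9% of it. It lay under 40% in 6 libraries: PFC susceptible replicate 1 at 13.4%, PFC resilient replicates 2 and 1 at 18.98% and 24.5%, PFC control replicates 2 and 1 at 21.6% and 36.7%, and NAc control replicate 3 at 35.7%. Levels and fitted differences between regions are also given without these 6. A second measure, chosen after the data were seen, was 49 single-copy genes of other organs, whose median lay at 1.63 times the receptor genes in NAc and 1.64 times in PFC (median over libraries). Members at this level are not above what silent genes show.

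The astrocyte sort itself could be followed by the gene of its epitope. Atp1b2 stood at 11.7 to 66.0 FPKM in the 22 NAc libraries (median 32.2) and at 11.5 to 141 FPKM in the 17 PFC libraries (median 51.1). The glutamate transporter Slc1a3 had medians of 9.29 and 10.5 FPKM, and Aldh1l1, an enzyme of folate metabolism that marks astrocytes, had 1.20 and 1.09 FPKM. The silent organ genes had medians of 0.700 and 0.689 FPKM. Aldh1l1 thus stood not far above background and says little about the sort. All 14 genes of the astrocyte list had counts in every library.

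In NAc the 9 members lay near the background in most libraries. Their mean FPKM was 1.03 to 2.98 times that of the receptor genes of the same library, with a median of 1.60, which is close to the 1.63 of the silent organ genes. In PFC every library was higher relative to its receptor genes than the NAc median: the ratio was 2.18 to 67.6 with a median of 3.26. The 5 PFC libraries of low background have a low divisor in this ratio by the way they were picked. They stood at 17.1, 19.4, 38.6, 49.7 and 67.6 times, and the other 12 at 2.18 to 6.31 times (median 2.95). In FPKM, which is not divided by the receptor genes, the mean of the members was 2.82 to 8.24 in the 5 (median 6.93). It was 0.968 to 2.43 in the other 12 (median 1.38) and 0.419 to 1.20 in NAc (median 0.736). The library total that scales FPKM holds the background too, so FPKM is not free of the way the 5 were picked.

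**Figure D1:**
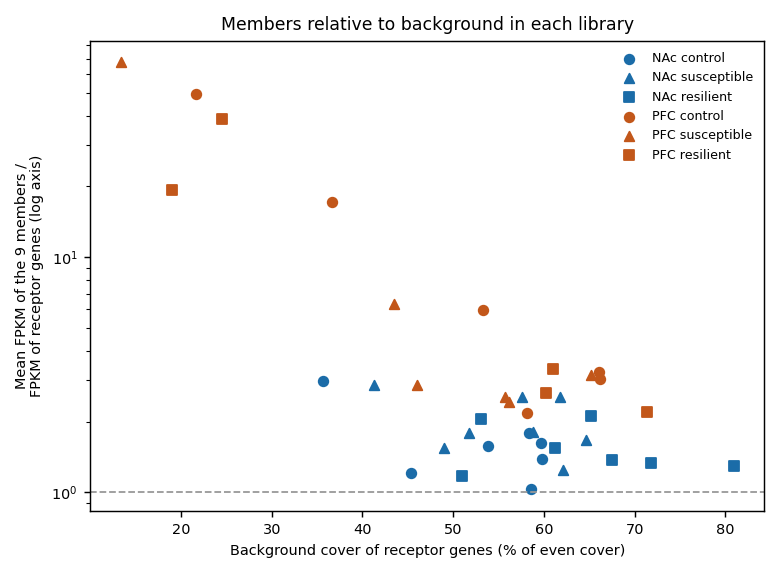
Mean FPKM of the 9 members divided by the FPKM of the receptor genes of the same library (log axis) against the receptor background in percent of even cover, 1 point per library, coloured by region and shaped by condition, with a dashed line at 1. The 5 PFC libraries under 40% background stand at 17.1 to 67.6, and NAc libraries stay at or under 2.98.

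Among the transcription factors, Neurod2, which drives the maturation of cortical projection neurons, was at 0 to 1.17 FPKM in NAc (median 0.409, n = 22) and at 0.386 to 4.43 FPKM in PFC (median 1.11, n = 17). Its count was 0 in NAc control replicate 3, where 3 counts would be 0.753 FPKM, so the value allows a level up to that and covers counting error only. In 7 of 17 PFC libraries it lay above the highest NAc library, and the ranges overlapped. The PFC resilient libraries stood at 4.43, 1.14, 0.736, 0.802 and 0.646 FPKM, the first far above the rest.

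Neurod6, a relative of Neurod2 used as a marker of cortical projection neurons, was at 0.275 to 1.29 FPKM in NAc (median 0.736) and at 0.475 to 5.38 FPKM in PFC (median 1.47). The 5 PFC libraries of low background held 1.75 to 5.38 FPKM and the other 12 held 0.475 to 2.00. In 9 of 17 PFC libraries it exceeded every NAc library. Its span is the shortest of the set, and 4 libraries held fewer than 10 counts of it.

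Tbr1, the T-box factor of deep-layer neurons, had the smallest ratio of PFC to NAc medians of the 9 members, 1.18. It was at 0.190 to 1.14 FPKM in NAc (median 0.737) and at 0.292 to 1.96 FPKM in PFC (median 0.866). PFC libraries exceeded the highest NAc library in 5 of 17. In NAc 0 of 22 libraries, and in PFC 5 of 17, had Tbr1 above the 95th percentile of the silent organ genes of the same library.

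Slc17a7 encodes VGLUT1, the transporter that fills vesicles with glutamate at most cortical synapses. In NAc it was at 0.358 to 2.13 FPKM (median 0.883) and in PFC at 1.01 to 18.6 FPKM (median 2.74), 3.11 times as high by the medians. PFC control libraries ran from 1.15 to 18.6 FPKM (median 3.56), PFC susceptible ones from 1.01 to 12.7 (median 2.05), and the resilient ones stood at 14.5, 5.78, 2.97, 1.86 and 2.62. It was above the 95th percentile of the silent genes in 17 of 17 PFC libraries and 6 of 22 NAc libraries. The regions overlapped all the same, since 5 PFC libraries lay at or under the highest NAc library.

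Slc30a3 encodes ZnT3, which loads zinc into vesicles of a subset of glutamatergic terminals, and its level was low in both regions. It was at 0.142 to 0.926 FPKM in NAc (median 0.594) and at 0.451 to 1.62 FPKM in PFC (median 0.826). In PFC it passed the 95th percentile of the silent genes in 4 of 17 libraries, all of them among the 5 of low background, and in NAc in 0 of 22. Exons fill a small share of its span, which lowers its FPKM against that of Slc17a7 for equal transcripts.

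Among the synaptic proteins, Nrgn encodes neurogranin, which binds calmodulin in dendritic spines, and had the highest medians of the set. It was at 0.621 to 2.05 FPKM in NAc (median 1.03) and at 1.36 to 19.9 FPKM in PFC (median 2.93). The PFC resilient libraries stood at 17.3, 5.94, 2.67, 1.48 and 2.19 FPKM, and PFC control replicate 2 and PFC susceptible replicate 1 at 19.8 and 19.9. In 13 of 17 PFC libraries it exceeded every NAc library, the most of the 9 members.

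Nptxr, the membrane-bound pentraxin that helps to cluster AMPA receptors, was at 0.361 to 1.961 FPKM in NAc (median 0.723) and at 0.979 to 14.8 FPKM in PFC (median 2.09). The highest NAc value is that of NAc control replicate 3, where it rests on 34 counts. The other 21 NAc libraries reached 1.498 FPKM at most. Nrn1, neuritin, a small anchored protein that promotes neurite growth and synapse stability, was at 0.249 to 1.44 FPKM in NAc (median 0.692) and at 0.810 to 4.88 FPKM in PFC (median 1.36). PFC libraries passed the 95th percentile of the silent genes in 15 of 17 for Nrn1 and in 14 of 17 for Nptxr, against 0 and 6 of 22 in NAc.

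Rtn4r encodes the Nogo receptor, through which myelin proteins restrain axon growth. It was at 0.202 to 0.983 FPKM in NAc (median 0.691) and at 0.660 to 3.21 FPKM in PFC (median 1.11). It exceeded the highest NAc library in 11 of 17 PFC libraries, but only by a median ratio of 1.60. In NAc it passed the 95th percentile of the silent genes in 0 of 22 libraries.

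**Figure D2:**
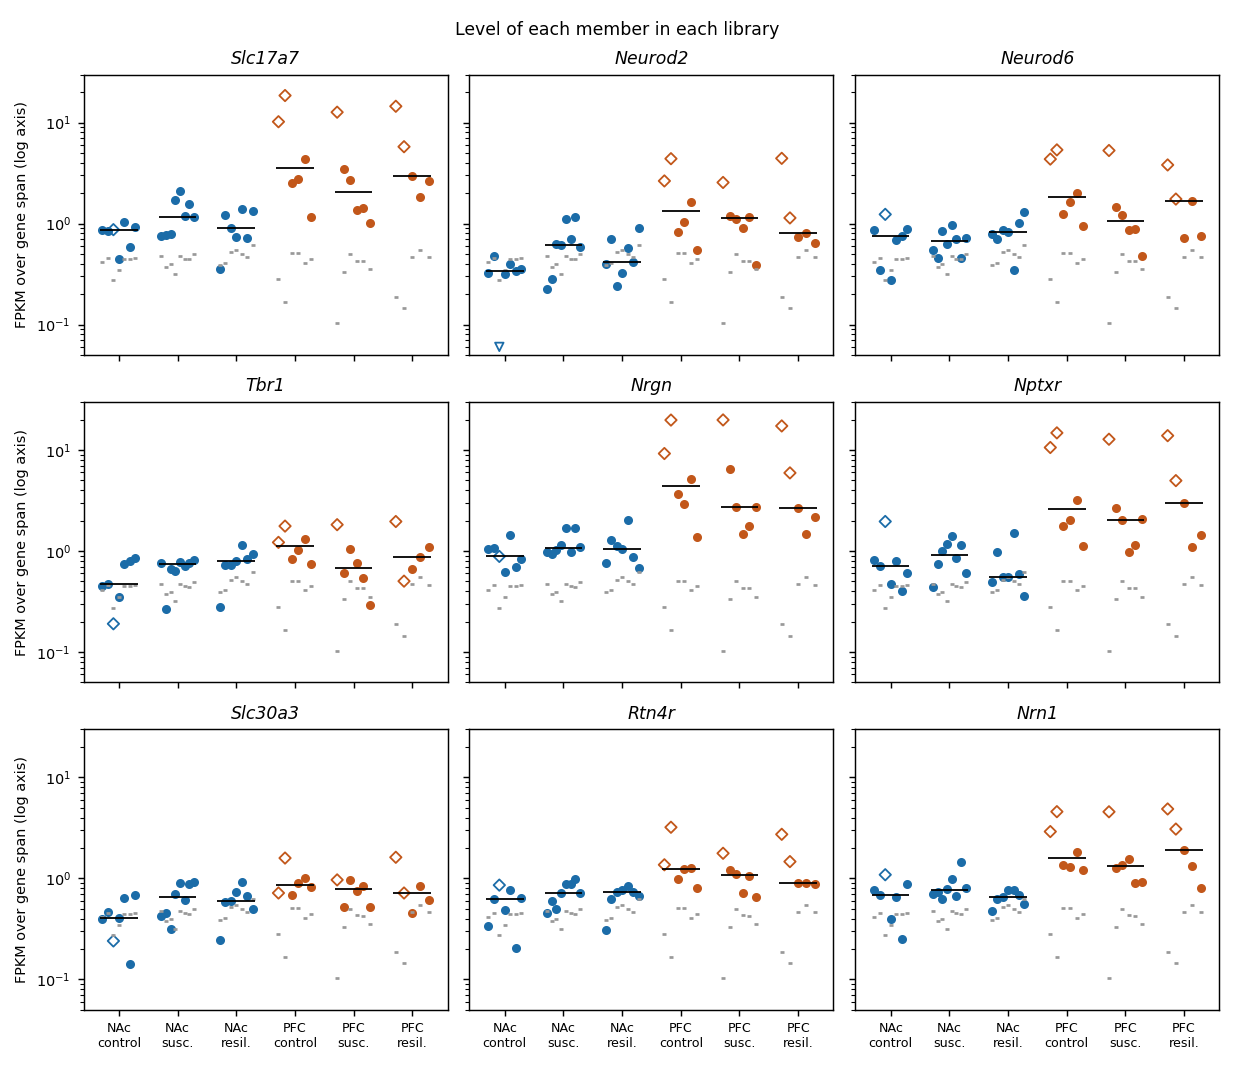
FPKM over the gene span (log axis) of each of the 9 members in the 6 groups, 1 point per library, with the group median as a line and the receptor FPKM of the same library as a grey dash. Open diamonds are the 6 libraries of low background, and the open triangle on the lower edge is the 0 count of Neurod2 in NAc control replicate 3. Nrgn and Slc17a7 reach 19.9 and 18.6 FPKM in PFC, and the highest PFC points of both are diamonds.

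Without the 6 libraries of low background, 12 PFC libraries were left against 21 of NAc. The PFC median was then 2.58 FPKM for Slc17a7, 0.870 for Neurod2, 1.09 for Neurod6, 0.795 for Tbr1, 2.69 for Nrgn, 1.88 for Nptxr, 0.787 for Slc30a3, 0.948 for Rtn4r and 1.32 for Nrn1. These medians were 1.07 (Tbr1) to 2.89 (Slc17a7) times those of NAc. Of the 12, the number above the highest NAc library was 8 for Nrgn, 7 for Slc17a7 and Nptxr, 6 for Rtn4r, 4 for Neurod6, 3 for Neurod2 and Nrn1, 2 for Slc30a3 and 1 for Tbr1. Every member thus had its higher median in PFC with and without these libraries, and overlapped between regions in both cases. The silent organ genes also had a higher median in the 12, 0.739 FPKM against 0.700 in all 22 NAc libraries, a shift like that of Tbr1. Of the 12, the number above the 95th percentile of the silent genes ran from 0 (Slc30a3) and 1 (Tbr1) to 12 (Slc17a7 and Nrgn).

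By the median of all 17 PFC libraries the order of levels was Nrgn, Slc17a7, Nptxr, Neurod6, Nrn1, Neurod2 with Rtn4r at about the same level, Tbr1 and Slc30a3. The spread of neighbours in that order overlapped throughout, since PFC values of 1 member ranged between 3.59-fold (Slc30a3) and 18.5-fold (Slc17a7). In NAc the medians lay between 0.409 FPKM (Neurod2) and 1.03 FPKM (Nrgn), with ranges that overlapped for all members. The coefficient of variation was 31.0% to 56.97% in NAc and 38.2% to 105% in PFC.

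Within PFC the values of the members ran together from library to library. Each member's deviation from its group mean (log2 CPM) had a Spearman correlation with the mean of the other 8 of 0.64 (Slc30a3) to 0.94 (Neurod2) over 17 PFC libraries. Without the 5 libraries of low background it was 0.25 to 0.85 over 12. In NAc it was -0.14 (Neurod6) to 0.85 (Slc17a7) over 22. The points share library and depth, and these values are descriptions.

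The same deviations went against the background in PFC, with Spearman correlations of -0.42 (Tbr1) to -0.79 (Nptxr) over 17 libraries, and -0.40 to 0.57 over 22 in NAc. Background and members are both scaled to the total of the same library, so these correlations are descriptions, and what links the 2 was not tested. The 5 PFC libraries carry the sample numbers 1, 3, 5, 7 and 11, the lowest odd numbers but for number 9, PFC susceptible replicate 2, which has 43.5% background and the next highest member ratio, 6.31. They include replicate 1 of all 3 conditions. The 5 NAc libraries numbered up to 12 stood at 1.17 to 1.58, under the NAc median. The labels do not say what the sample number orders, and its part in the levels was not tested.

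**Figure D3:**
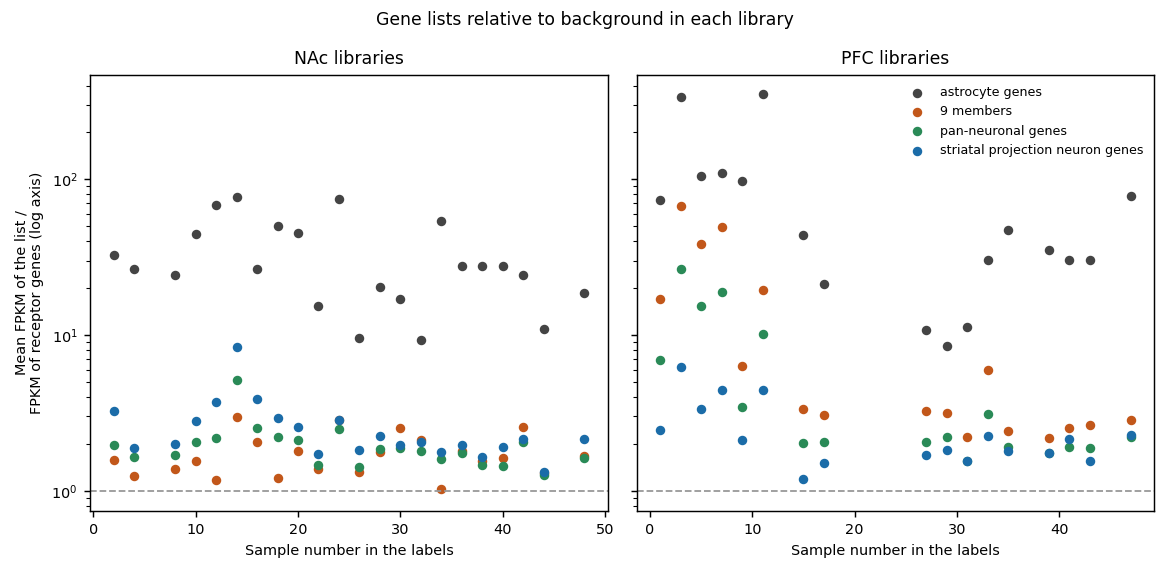
Mean FPKM of 4 gene lists divided by the receptor FPKM of the same library (log axis) against the sample number of the labels, NAc at left and PFC at right, 1 point per library and list, with a dashed line at 1. In PFC the members stand at 17.1 to 67.6 in 5 of the libraries numbered up to 11 and at 2.18 to 6.31 in the rest, and striatal genes stay at or under 6.24.

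Markers of other cells also differed between these libraries. The 16 pan-neuronal genes stood at a median of 15.4 times the receptor genes in the 5 PFC libraries of low background, 2.03 times in the other 12 and 1.83 times in NAc. Snap25, part of the vesicle fusion machinery, was at 2.74 to 7.03 FPKM in the 5, at 0.711 to 1.93 in the other 12 and at 0.522 to 1.36 in NAc. Astrocyte genes stood higher over background too, with medians of 109, 30.4 and 27.3 times. Oligodendrocyte genes (43.9, 8.69 and 15.4 times) and endothelial and mural genes (16.4, 2.63 and 3.23 times) did likewise. The low divisor enters all these ratios: in mean FPKM the medians in the 5, the other 12 and NAc were 2.71, 0.906 and 0.788 for pan-neuronal genes and 20.9, 13.5 and 12.6 for astrocyte genes. They were 7.00, 3.87 and 6.46 for oligodendrocyte genes, with the 5 near NAc, and 3.43, 1.35 and 1.39 for endothelial and mural genes. The part of depth, background and other cells in the levels of the members was not tested.

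Set against other neuronal genes, where the receptor genes cancel as a divisor, the members were described again. The background within each level does not cancel. Silent organ genes had medians of 0.700 FPKM in NAc, 0.739 in 12 PFC libraries and 0.270 in the 5 of low background. The NAc medians of the list means were 0.736 (members), 0.788 (pan-neuronal) and 0.971 FPKM (striatal), near that level. The part of background in these quotients was not tested. Their mean FPKM per 100 of the pan-neuronal mean was 53.3 to 135 in NAc (median 93.9) and 125 to 261 in PFC (median 159), with a median of 251 in the 5 and 143 in the other 12 PFC libraries. Striatal projection neuron genes went the other way, at 104 to 170 per 100 pan-neuronal in NAc (median 119) and 21.7 to 112 in PFC (median 74.0). Per 100 of the astrocyte mean the members stood at 1.72 to 22.9 in NAc (median 5.74) and 3.64 to 45.5 in PFC (median 14.3, and 8.53 in the 12 PFC libraries without low background), and these ranges overlap widely. Of the 9 members 1, Neurod2, was at 0 in a library, and of the 14 striatal genes 2 were.

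The 20 further genes of cortical excitatory neurons were measured in the same way. Their mean was 18.1 times the receptor genes by the median of the 5 libraries, 2.50 times in the other 12 and 2.29 times in NAc. Camk2a, the calmodulin-dependent kinase of excitatory synapses, was at 5.08 to 11.4 FPKM in the 5, 1.18 to 3.54 in the other 12 and 0.732 to 2.75 in NAc. Egr3, an activity-induced factor, was at 3.60 to 11.9, 0.604 to 2.76 and 0.365 to 2.75 FPKM.

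Partners and relatives of the members were described as well, 18 genes in all, with a mean at 10.4 times the receptor genes in the 5 libraries, 2.15 times in the other 12 and 2.04 times in NAc (medians). Neurod1 and Nptx1 belong both to this list and to that of the further cortical genes, so these lists are not separate. Nptx1, a secreted pentraxin that works with Nptxr, stood at 0.822 FPKM in NAc and 1.72 FPKM in PFC, and Rtn4, which encodes the Nogo protein read by Rtn4r, at 2.40 and 2.11 FPKM. Omg, a myelin ligand of the same receptor, stood at 2.99 and 3.95 FPKM. Interneuron genes stood at 3.53 times in the 5, 1.67 times in the other 12 and 1.77 times in NAc, but in mean FPKM the 5 were lowest, with medians of 0.513, 0.763 and 0.793. Gad1, which makes GABA, was at 0.485 to 0.999 FPKM in NAc and 0.261 to 0.871 FPKM in PFC. Sst, with the highest mean FPKM of the interneuron list, went the other way. Its medians were 3.19 FPKM in the 5, 1.69 in the other 12 and 2.16 in NAc, where it ran from 0 to 8.15.

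The fit of all libraries put all 9 members higher in PFC than in NAc in each condition. In control mice the log2 fold change was 1.11 (Tbr1) to 3.37 ± 0.67 (SE; Slc17a7), with a median of 2.20 against 0.02 over all 38171 genes tested. In susceptible mice it was 0.44 (Slc30a3) to 2.75 ± 0.62 (Nrgn), with a median of 1.43 against -0.03. In resilient mice it was 0.72 (Tbr1) to 3.19 ± 0.73 (Nptxr), with a median of 2.11 against -0.06. In CPM, Slc17a7 averaged 98.0, 58.6 and 84.3 in PFC control, susceptible and resilient mice against 9.52, 14.5 and 10.9 in NAc. As this contrast chose the members, these values carry no test.

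Without the 6 libraries of low background all 9 stayed higher in PFC, at smaller differences. The range became 0.61 to 1.72 log2 in control, 0.08 to 1.45 in susceptible and 0.15 to 1.41 in resilient mice, with medians of 1.18, 0.64 and 0.62. With pairs of consecutive sample numbers as a replicate block the medians were 1.89, 1.00 and 0.92, and with the background percent as a covariate 1.68, 0.72 and 1.07. The fit with that block held only the libraries of 16 such pairs. Libraries without a partner, PFC resilient replicate 1 among them, were left out, so its medians do not show pairing alone. Neurod2 in resilient mice went from 2.11 to 0.58 in that fit, and leaving out 1 library took it as low as 0.99. By the adjusted p of edgeR 0 of the 9 were called in any condition, where 0.00262% of 38171 genes were called in control mice, 0.00262% in susceptible mice and 0% in resilient mice, where 5564 genes had an unadjusted p under 0.05. DESeq2 called 8 of 9 in control mice, all but Tbr1, where it called 0.549% of genes, 0 of 9 in susceptible mice (0.00543%) and 5 of 9 in resilient mice (0.235%). With the background percent as a covariate edgeR called 7 of 9 in control mice, where it called 0.778% of genes, and 0 of 9 in the other 2 conditions. These counts stand beside the share over all genes only, and nothing is read from them, because the rule used the contrast.

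**Figure D4:**
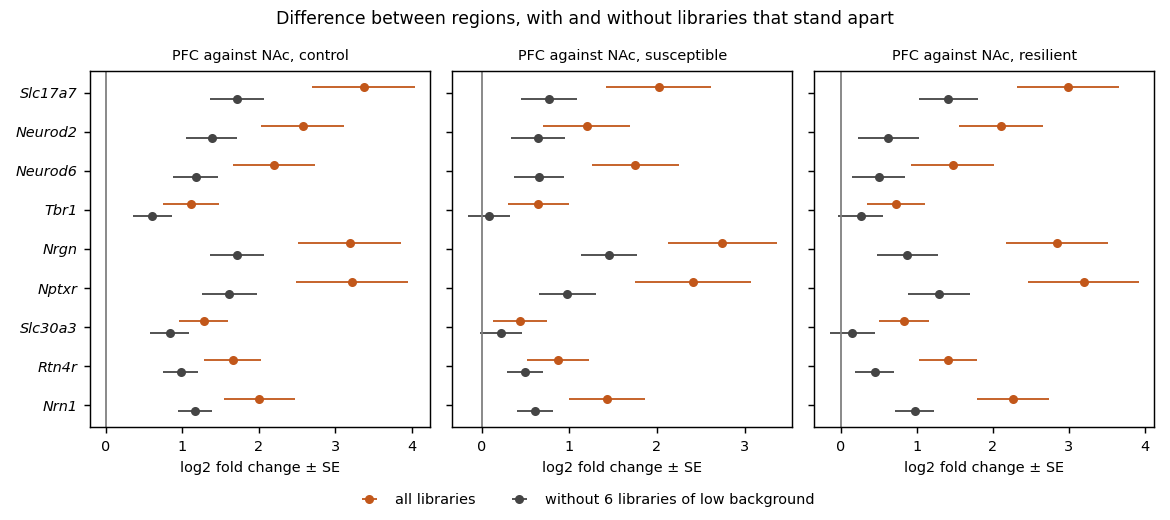
Log2 fold change of each member between PFC and NAc, with its standard error, in control, susceptible and resilient mice, for all libraries and without the 6 of low background. All points lie above 0, and the largest, Slc17a7 in control mice, goes from 3.37 to 1.71.

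Stress outcome was compared with control within each region. No contrast was named for the choice of the members, which is taken here to rest on the difference between regions. As earlier results of these data were known, the p-values of the members may not be free of that choice. In NAc the fitted difference between susceptible and control mice was above 0 for all 9 members, 0.04 to 0.83 log2 with a median of 0.35 against -0.0011 over 35943 genes. None passed, and 0% of genes tested were called (edgeR adjusted p of 1.00 for each member). The members come from the same libraries, so their shared sign is not a count of separate observations. Without the 6 libraries of low background the 9 stayed above 0, with a median of 0.42. Neurod6, at 0.04, was below 0 when NAc control replicate 2 or 4 or NAc susceptible replicate 3 or 5 was left out (-0.10, -0.13, -0.03 and -0.05).

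Neurod2 and Slc17a7 had the largest of these differences in NAc. Neurod2 was at 0 to 0.477 FPKM in NAc control libraries (median 0.338) and at 0.224 to 1.17 FPKM in susceptible ones (median 0.616). Of the 8 susceptible libraries 6 lay above the highest control library, and the groups overlapped. The log2 fold change was 0.83 ± 0.31 (SE; n = 8 and 7; edgeR unadjusted p = 0.0128), which did not pass the adjustment. Slc17a7 was at 0.449 to 1.05 FPKM in control (median 0.859) and 0.762 to 2.13 FPKM in susceptible libraries (median 1.17), with 5 of 8 above the highest control. Its log2 fold change was 0.62 ± 0.24 (edgeR unadjusted p = 0.0157), which did not pass either.

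The levels of Neurod2 and of the 9 members together sit close to the background. As ratios to the receptor genes, Neurod2 had medians of 0.779 in control and 1.57 in susceptible libraries, and the median of the 9 members together was 1.58 and 1.79. Slc17a7 had medians of 2.03 and 2.49. It passed the 95th percentile of the silent genes in 0 of 7 control and 4 of 8 susceptible libraries, and Neurod2 did so in 0 of either group. The 20 further cortical genes had a median log2 fold change of 0.02, with 10 of 20 above 0, and the 16 pan-neuronal genes of 0.02, with 9 above 0. Oligodendrocyte genes were lower in 10 of 10 (median -0.82), and astrocyte genes in 13 of 14 (median -0.22), with 0 called in any of these lists. The part of such cells in the values of the members was not tested.

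Between resilient and control mice in NAc 7 of 9 members were above 0, from -0.08 (Nptxr) to 0.36 (Slc30a3), with a median of 0.23 against 0.01 over all genes. None passed (smallest edgeR adjusted p among the 9 = 0.756), and 0% of genes were called. Nptxr and Nrn1 were the 2 below 0, and without the 6 libraries of low background, of which NAc control replicate 3 is the only one in NAc, both turned positive, at 0.11 and 0.04. Neurod2 stood at 0.239 to 0.898 FPKM in resilient libraries (median 0.419), 3 of 7 above the highest control. Beside these values, oligodendrocyte genes were lower in 10 of 10 (median -1.14) and astrocyte genes in 13 of 14 (median -0.58), with 0 called, and the mean background was 64.4% in resilient and 53.0% in control libraries. Their part in the values of the members was not tested.

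In PFC all 9 members were lower in susceptible than in control mice, by -0.71 (Slc17a7) to -0.15 (Nrgn) log2, with a median of -0.42 against -0.01 over 32167 genes. None passed (edgeR adjusted p = 1.00), and 0% of genes were called. Only 155 genes had an edgeR unadjusted p under 0.05, where an even spread of p would give 1608. The 0 calls in PFC thus do not show that nothing differs. The 95% intervals were wide: that of Slc17a7 ran from -2.30 to 0.89 and that of Nrgn from -1.79 to 1.497. This direction rested on 1 library. Without PFC control replicate 2 all 9 were higher in susceptible mice, by 0.0041 to 0.74, and without PFC susceptible replicate 1 all 9 were lower by more, at -1.95 to -0.54. Without the 6 libraries of low background 7 of 9 were lower, with a median of -0.12, and Neurod2 and Nrgn stood at 0.07 and 0.01.

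Resilient and control mice in PFC differed by -0.46 (Neurod6) to 0.23 (Nrn1) log2, with 8 of 9 members lower and a median of -0.13. None passed, and 0% of genes were called. With the replicate number as a block 9 of 9 were lower (median -0.43), also with none called. Without PFC control replicate 2 all 9 were higher, by 0.08 to 0.79, and without PFC resilient replicate 1 all 9 were lower, by -1.23 to -0.30. Without the 6 libraries of low background 9 of 9 were lower (median -0.22). Slc17a7 overlapped fully between the groups, 1.86 to 14.5 FPKM in 5 resilient and 1.15 to 18.6 FPKM in 6 control libraries. Beside these values, astrocyte genes were higher in 14 of 14 in both PFC comparisons (medians 0.73 and 0.77), pan-neuronal genes were lower in 13 and 12 of 16 (medians -0.28 and -0.08), and 0 of either list were called.

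**Figure D5:**
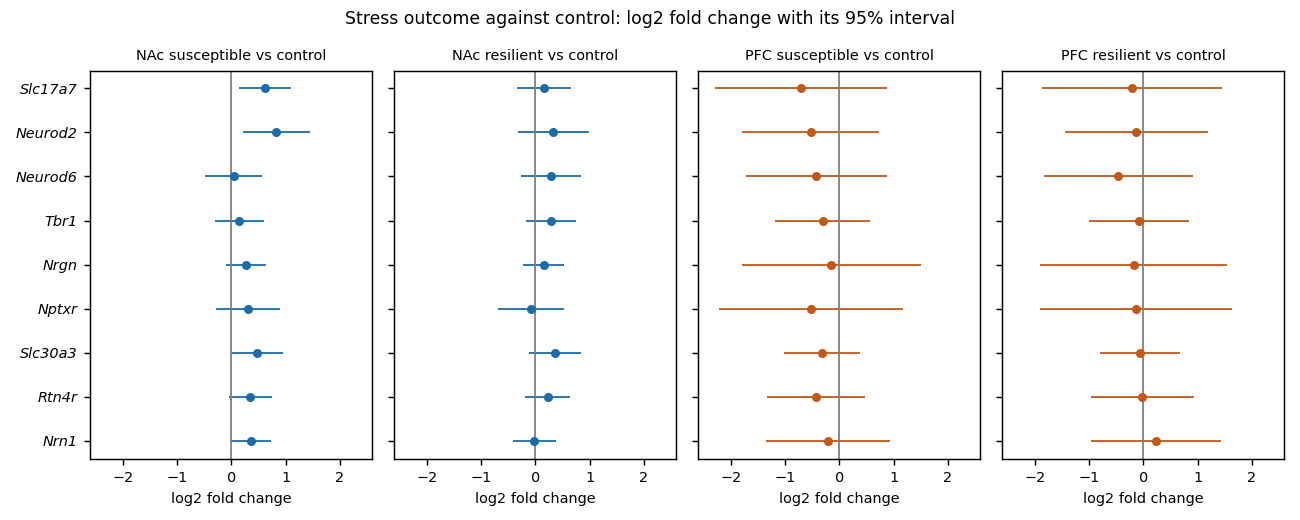
Log2 fold change of each member between susceptible or resilient and control mice in NAc and PFC, with its 95% interval. The interval is the SE times a normal quantile and can be narrower than the test allows. That of Slc30a3 in susceptible NAc mice leaves out 0 (0.012 to 0.946) at an edgeR unadjusted p of 0.0546. Intervals in PFC are wider than in NAc, and none of the 36 differences passed the adjusted threshold.

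The difference of the stress effect between regions was tested as an interaction. For susceptible mice it was below 0 for all 9 members, -1.37 (Neurod2) to -0.44 (Nrgn), with a median of -0.79. None passed (edgeR adjusted p = 1.00 for each), and 0% of 38171 genes were called. Slc30a3 had the smallest unadjusted p, at -0.84 ± 0.44 (edgeR unadjusted p = 0.0645, adjusted p = 1.00). Without PFC control replicate 2 the range was -0.67 to 0.48, with 2 of 9 above 0. For resilient mice it was -0.73 (Neurod6) to 0.26 (Nrn1), with 8 of 9 below 0 and none passing (smallest edgeR adjusted p among the 9 = 0.853).

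Over 39 libraries the 10 genes whose group-centred log2 CPM was most like the mean of the members, among 7641 candidates at least 2 times above the receptor genes, included Mpped1, Rimbp2, Rasgef1a, Dlgap3, Sncb, Cabp1, Camkk2 and Bsn. The Spearman correlations of these 8 were 0.90 to 0.94. Mpped1 had 0.94 over all libraries, 0.85 within NAc and 0.92 within PFC, and stood at 0.894 FPKM in NAc and 1.01 FPKM in PFC by the medians. Bsn, the presynaptic scaffold bassoon, stood at 0.858 and 1.48 FPKM. Sncb, beta-synuclein, stood at 0.986 and 1.67 FPKM.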

How the data were processed

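The 39 libraries were prepared, per the labels' protocols, from picogram amounts of total RNA of ACSA-2 bead-sorted cells with a stranded pico-input kit. The authors deposited whole-number counts per gene, made with featureCounts on mm10 per the submitters' processing notes. Aligner, annotation, versions and strand setting: not given in the sources used here. Per-gene deposited FPKM values are those counts divided by the library total and by a length that equalled the gene span in GENCODE M21 for 54229 of 54229 genes compared (relative tolerance 1e-06). Ignoring version suffixes, 55141 gene identifiers were found in that release and 260 were not. No 2 libraries held identical counts.

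Levels are the deposited FPKM, and ratios divide them by the FPKM of the receptor genes of the same library. The test was edgeR 4.0.16, quasi-likelihood, on the counts (R 4.3.3, limma 3.58.1; trimmed-mean scaling, default count filter, robust dispersion, Benjamini-Hochberg over all genes tested, threshold 0.05, two-sided). Within a region its 3 conditions were fitted together, and regions and interactions came from 1 fit of 39 libraries in 6 groups. DESeq2 1.42.0 was an alternative, with its size factors, no count filter, a replicate block and each library left out in turn. The block of consecutive sample numbers kept only the libraries of 16 pairs. The background covariate and the fits without 6 or 3 libraries were added after the data were seen. The test was checked on simulated counts with the same dispersion for every gene and no difference in background between libraries. That check does not cover the spread seen between the PFC libraries.

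The members and all lists were chosen with earlier results of these data known. Named are all members, the up to 4 genes of highest mean FPKM per list from which examples are given, Atp1b2, Aldh1l1 and Slc1a3, and the 10 genes most like the members (Spearman, mean log2 CPM above 1, mean FPKM at least 2 times that of the receptor genes, no predicted, clone-based or pseudogene names). Some genes under this rule are not reported here. The 49 organ genes and the 40% background limit were chosen after the data were seen.

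Same-numbered replicates were compared over 26202 genes. Their deviations correlated over 0.1 in 5 of 5 pairs of PFC resilient with control libraries (lowest 0.230; 3 of 5 best with their own number), in 5 of 6 of PFC susceptible with control, and in 4 and 1 of 7 in NAc. By that measure only PFC resilient with control counts as paired, with nothing in the labels to say why. Sample numbers that follow each other may mark 1 mouse, which the labels do not settle (9 of 16 pairs over 0.1).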

Additional observations from a re-analysis of the deposited data

Results flagged for a closer look

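Dixon's test at 95%, which asks whether the highest or lowest library of a group lies far from the next, marked 15 of 54 combinations of member and group, where chance marks about 1 in 20. The members share libraries, so the marks are not separate events.

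PFC susceptible replicate 1, the library with the lowest receptor background, was far above its group in Slc17a7 at 12.7 FPKM, Neurod2 at 2.56 FPKM, Neurod6 at 5.30 FPKM, Nrgn at 19.9 FPKM, Nptxr at 12.8 FPKM and Nrn1 at 4.57 FPKM. PFC resilient replicate 1 was far above its group in Neurod2 at 4.43 FPKM and Nrgn at 17.3 FPKM. PFC control replicate 2 was so in Slc30a3 at 1.59 FPKM and Rtn4r at 3.21 FPKM. All 3 are among the libraries of low background.

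NAc control replicate 3, the shallowest library, was lowest in Neurod2 with a count of 0 and highest in Nptxr at 1.961 FPKM. Of the other NAc libraries, susceptible replicate 2 was low in Tbr1 at 0.268 FPKM, resilient replicate 1 was low in Rtn4r at 0.311 FPKM and susceptible replicate 7 was high in Nrn1 at 1.44 FPKM.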

How the results depend on the processing

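Calls between susceptible or resilient and control mice, and the interactions, were 0 under every alternative run, the replicate block (0 in both regions) and DESeq2 included. Between regions in control mice the 1 called gene became 121 with DESeq2 (8 members), 3 with consecutive sample numbers as a replicate block, 297 with the background covariate (7 members) and 0 without the 6 libraries of low background. In susceptible mice 1 became 3 with DESeq2 and 0 with that replicate block, and in resilient mice 0 became 82 with DESeq2 (5 members). The members were chosen with this contrast in view, so nothing is read from their counts, and these calls are 0.549%, 0.778% and 0.235% of genes for the 121, 297 and 82. Leaving out 1 library gave 1 to 3 genes in control mice (0 to 1 member; 1 without PFC susceptible replicate 1), 0 to 2 in susceptible mice and 0 to 85 in resilient mice (0 to 4 members; 85 and 4 without PFC resilient replicate 4). The median ratio of PFC to NAc over the members was 2.00. It was 1.93 to 2.28 in CPM, without the 3 shallow libraries and without the 6 of low background. The median fitted difference is on a log2 scale and partly had other alternatives, so the 2 are not compared. It was 2.20, 1.43 and 2.11 (control, susceptible, resilient) in the main fit and 1.68, 0.72 and 1.07 with the covariate. With the block of consecutive numbers, which left out libraries without a partner, it was 1.89, 1.00 and 0.92.

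Genes at an unadjusted p under 0.05 numbered 1086 and 2206 in NAc and 155 and 192 in PFC (susceptible, resilient), against 1730, 3163, 430 and 776 with DESeq2, 1780, 2884, 915 and 1078 with no count filter, and 898, 3263, 819 and 624 with the replicate block. The interactions had 528 and 1318, and 1084 and 2329 with DESeq2. An even spread of p would give 1797 genes in NAc, 1608 in PFC and 1909 for the interactions under the main fit.

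Signs near 0 turned. In NAc resilient mice Nptxr was 0.24 with the background covariate and 0.11 without the 6 or the 3 shallow libraries, and Nrn1 was 0.055 with the replicate block and 0.039 without either set. In PFC susceptible mice, without the 6, Neurod2 was 0.072 and Nrgn 0.013. In PFC resilient mice, without the 3 shallow libraries, Neurod2 was 0.013, Tbr1 0.023, Nrgn 0.0097, Nptxr 0.0057, Slc30a3 0.084 and Rtn4r 0.11. There Rtn4r was also 0.018 with DESeq2 size factors and 0.0086 with DESeq2, and Nrn1 was -0.11 with the replicate block and -0.13 without the 6. The causes were not tested.

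Leaving out 1 library turned 51 values. In NAc, Neurod6 in susceptible mice ran from -0.13 to 0.14, and in resilient mice Nptxr ran from -0.29 to 0.11 and Nrn1 from -0.13 to 0.072. In PFC susceptible mice all 9 turned without control replicate 2, with ranges of -1.95 to 0.16 (Slc17a7), -1.06 to 0.14 (Neurod2), -1.50 to 0.11 (Neurod6), -0.89 to 0.0041 (Tbr1), -1.42 to 0.74 (Nrgn), -1.91 to 0.25 (Nptxr), -0.54 to 0.043 (Slc30a3), -0.79 to 0.16 (Rtn4r) and -1.03 to 0.33 (Nrn1). In PFC resilient mice they were -1.06 to 0.67, -1.21 to 0.56, -1.08 to 0.081, -0.59 to 0.24, -1.23 to 0.72, -1.13 to 0.64, -0.54 to 0.32, -0.53 to 0.59 and -0.30 to 0.79 in that order. At 0.941 to 37.3 M counts, 11 of the member values rest on fewer than 10 counts.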
